A study of Homo sapiens with 2 samples.

Results

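The genes described here are 10 genes of the bone morphogenetic protein (BMP) and TGF-beta pathway, namely ID1, ID2, ID3, SMAD6, SMAD7, SMAD3, BMP2, BMP4, BMPR2 and TGFB1, taken by name from the array's annotation. They are 10 of 19775 genes with a probe set of their own on the array, and are covered by 24 of its 54675 probe sets. HT-29, a human colorectal adenocarcinoma line, was compared as spheroids and as monolayer, with RNA of each culture on 1 Affymetrix Human Genome U133 Plus 2.0 array. The spheroids were raised from monolayer cells on non-treated low-adhesion plates and harvested on day 5, in stem cell media with B27 and with epidermal and fibroblast growth factors. The monolayer was kept on tissue culture plates in DMEM/F-12 with 10% fetal bovine serum, and both media held the same antibiotic-antimycotic. No serum is listed for the stem cell media, so that serum, growth factors and attachment differed together and cannot be told apart.

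Each value is a MAS5 signal, an intensity on a linear scale that the authors computed per probe set, and both arrays had the same trimmed mean of 500.1. Before log2 was taken, any signal below a floor of 62.7 (the 50th percentile over both arrays) was raised to that value, so that a probe set under the floor on 1 array gives only a bound. With 1 array per condition there was no replicate check, no test was run and no p-value was computed. As a scale for what follows, the log2 difference had an SD of 0.41 between probe sets of the same gene, over 5506 genes, which holds no culture-to-culture variation. The 18 hybridisation spike-in probe sets were all lower on the spheroid array, at a mean log2 difference of -0.25. Scaling to them moved the median over all genes to 0.18, against -0.05 as deposited. The 27 labelling spike-in probe sets had a mean log2 difference of -0.36, and scaling to these was not tried. Values given below relative to the spike-ins refer to the hybridisation ones. Of 10 colon epithelium markers 9 were measured, 5 higher and 4 lower in spheroids, with a median log2 difference of 0.08 and summed signals of 76099 in spheroids and 86150 in monolayer. The epithelial adhesion gene EPCAM had signals of 22299 in spheroids and 21151 in monolayer. KRT18, KRT19 and KRT8, keratins of simple epithelium, were lower (-0.39, -0.29 and -0.33), and CDH1, which encodes E-cadherin, was higher (0.41). KRT20, a keratin of differentiated intestinal cells, was at 218 in spheroids and 99.6 in monolayer (1.13). With the floor applied it was the only one of these markers past 2-fold. Signals of CEACAM5 (106 in spheroids and 12.3 in monolayer), the intestinal factor CDX2 (80.0 and 55.9) and VIL1 (27.2 and 100.5) were each under the floor on 1 array, and those of the intestinal factor CDX1 on both. PTPRC and CD3E of leukocytes and CDH5, KDR, VWF and TEK of endothelium were under it as well, and PECAM1 and ITGAM were above it, at 99.5 and 97.5 in spheroids and 124 and 123 in monolayer. Of 7 fibroblast markers 5 were under it on both arrays, COL1A2 was at 57.1 and 64.9, and the collagen gene COL1A1 was at 1972 in spheroids and 1370 in monolayer. The summed signals of the fibroblast, endothelium and leukocyte lists were 2213, 161 and 136 in spheroids and 1575, 252 and 203 in monolayer, and the part of the marker genes in the values below was not tested.

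BMP and TGF-beta ligands bind paired serine/threonine kinase receptors at the cell surface, which phosphorylate SMAD proteins that then enter the nucleus with SMAD4. BMP ligands act through SMAD1, SMAD5 and SMAD9, and TGF-beta and activins through SMAD2 and SMAD3. ID1, ID2 and ID3 are direct target genes of BMP signalling, and SMAD6 and SMAD7 are induced as feedback inhibitors, so that their mRNA is commonly read as a report of the pathway. In the colon BMP activity is known to be highest toward the mucosal surface, where cells differentiate, and to be held down near the stem cells at the crypt base by antagonists such as noggin and gremlin. Serum carries BMP activity, and HT-29 cells are known to lack full-length SMAD4 protein.

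The upstream sequences of 4 response genes are shown because these genes report the pathway and SMAD proteins bind such regions. Each holds the 250 bases before the gene's RefSeq start (GRCh38.p14), written 5′ to 3′ on the gene's strand, with capitals for any match on either strand to GTCT, the core of the SMAD binding element, to GTCTAGAC, its palindromic form, or to GGCGCC, a GC-rich element of BMP response regions. ID1 lies at chr20:31605039-31605288 (+), ID2 at chr2:8681806-8682055 (+), ID3 at chr1:23559502-23559751 (-) and SMAD6 at chr15:66701986-66702235 (+).
ID1: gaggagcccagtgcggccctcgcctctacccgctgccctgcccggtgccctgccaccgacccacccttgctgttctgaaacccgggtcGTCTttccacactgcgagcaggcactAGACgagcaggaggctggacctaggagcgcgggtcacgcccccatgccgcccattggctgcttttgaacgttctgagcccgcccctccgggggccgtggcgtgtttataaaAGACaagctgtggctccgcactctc
ID2: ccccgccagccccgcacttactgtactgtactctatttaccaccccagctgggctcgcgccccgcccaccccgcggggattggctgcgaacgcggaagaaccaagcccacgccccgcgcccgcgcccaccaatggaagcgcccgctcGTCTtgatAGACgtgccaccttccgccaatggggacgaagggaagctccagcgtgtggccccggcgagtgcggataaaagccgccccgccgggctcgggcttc
ID3: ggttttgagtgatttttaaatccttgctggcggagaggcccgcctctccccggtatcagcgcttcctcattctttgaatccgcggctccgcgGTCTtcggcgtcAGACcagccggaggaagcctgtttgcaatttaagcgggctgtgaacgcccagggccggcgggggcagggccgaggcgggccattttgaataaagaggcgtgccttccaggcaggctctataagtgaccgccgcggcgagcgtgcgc
SMAD6: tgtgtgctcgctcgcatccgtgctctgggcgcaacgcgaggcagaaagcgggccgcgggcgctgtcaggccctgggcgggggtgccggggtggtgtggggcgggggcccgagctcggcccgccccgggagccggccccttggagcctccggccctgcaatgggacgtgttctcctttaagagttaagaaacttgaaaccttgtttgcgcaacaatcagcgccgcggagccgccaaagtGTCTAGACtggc
GTCT had 3 matches upstream of ID1, 2 upstream of ID2 and 2 upstream of ID3, and 77.5% of 35116 windows of this length before RefSeq starts held at least 1. The palindrome GTCTAGAC, which itself holds GTCT on each strand, was found upstream of SMAD6, beginning 12 bases before the start, and in 0.182% of all windows. GGCGCC was found in the 250 bases of none of these 4 genes and in 16.4% of all windows. Bases farther upstream were not searched. The 3 RefSeq windows of SMAD7, which are not printed, held 1, 5 and 4 matches to GTCT and none to GTCTAGAC or GGCGCC. Matches are a description of the letters and were not tested as binding sites, and RefSeq sequences were matched for 9 of the 10 genes, in 17 windows.

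On the spheroid array the ID genes were close to their monolayer signals. ID1, which encodes a helix-loop-helix protein that binds and blocks basic helix-loop-helix factors, had a signal of 16503 in spheroids and 18706 in monolayer, a log2 difference of -0.18. In bulk RNA fewer expressing cells and less RNA per cell cannot be told apart. ID2, a relative of ID1 with the same action, was at 14424 in spheroids and 15574 in monolayer by its brightest probe set (-0.11) and at 5249 and 6349 by the other (-0.27). ID3 was at 4753 in spheroids and 6057 in monolayer (-0.35). All 4 probe sets of these genes were thus lower in spheroids, by less than the SD of 0.41 between probe sets of the same gene. Relative to the hybridisation spike-ins ID1 and ID2 were above 0, at 0.07 and 0.14, and ID3 at -0.10. A further probe set that the annotation gives to ID2 together with ID2B was at 1525 in spheroids and 1399 in monolayer and was not used. ID4, the family's remaining member, had signals near the floor of 127 in spheroids and 74.1 in monolayer, a log2 difference of 0.78, but its 3 measured probe sets lay between -0.14 and 0.78.

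**Figure D1:**
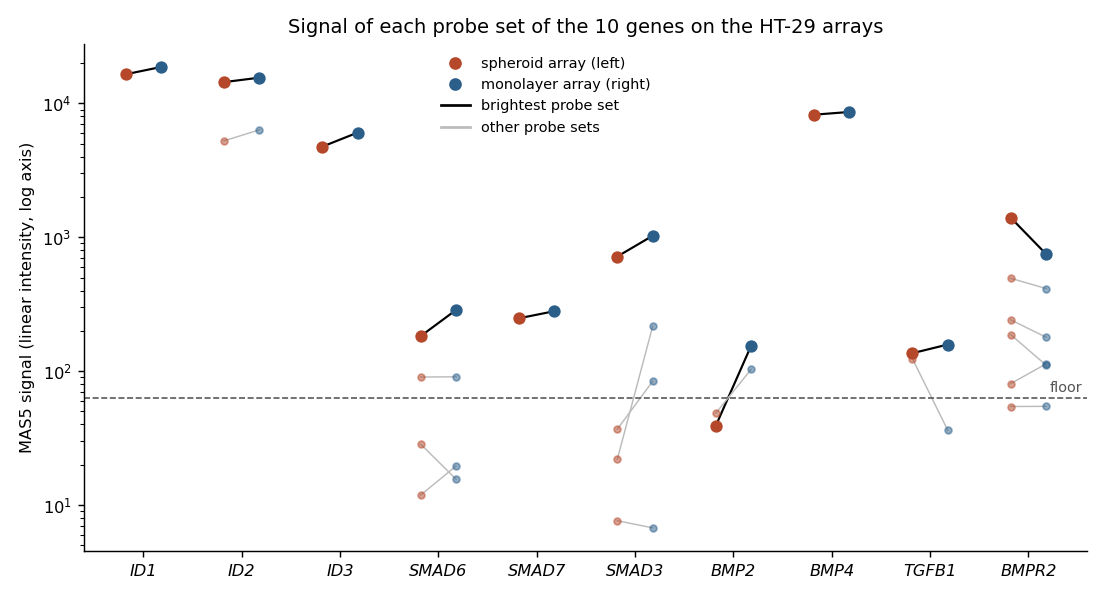
MAS5 signal (log axis) of all 24 probe sets of the 10 genes, with the spheroid array on the left and the monolayer array on the right of each gene, 1 array per condition, and the floor of 62.7 as a dashed line. ID1, ID2, ID3 and BMP4 run almost level at high signals, both probe sets of BMP2 cross the floor, and the brightest of BMPR2 is higher on the spheroid array.

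SMAD6 and SMAD3 were lower on the spheroid array, neither by 2-fold or more in its brightest probe set, and SMAD7 was nearly level. SMAD6, which blocks BMP receptors and SMAD1, had a signal of 182 in spheroids and 286 in monolayer, a log2 difference of -0.65. A second probe set of SMAD6 was level, at 90.4 in spheroids and 90.7 in monolayer, and its 2 remaining probe sets reached the floor on neither array. SMAD7, which inhibits both branches, was at 248 in spheroids and 280 in monolayer (-0.18) by its only probe set, but at 0.07 relative to the spike-ins. SMAD6 was under 0 with every scaling tried, between -0.73 and -0.40.

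SMAD3, the receptor-activated SMAD through which TGF-beta acts on many of its targets, was at 719 in spheroids and 1027 in monolayer by its brightest probe set, a log2 difference of -0.52. A dimmer probe set of SMAD3 had a signal of 22.0 in spheroids and 217 in monolayer, at least 3.46-fold lower, and another was at 36.8 and 84.1, at least 1.34-fold lower. The 3 measured probe sets of SMAD3 therefore lay on the same side but differed in size, and the fourth was under the floor on both arrays. Which transcripts each of them detects is not given in the sources used here. Among the other SMADs, SMAD9 (961 in spheroids and 723 in monolayer, 0.41), SMAD5 (2653 and 2058, 0.37) and SMAD1 (2583 and 2184, 0.24), which carry the BMP signal, were higher in spheroids, while SMAD2 (2912 and 3539, -0.28) and SMAD4 (3190 and 3442, -0.11) were lower. None of these 5 was past 2-fold. For SMAD9 only 1 of 2 probe sets was measured, and for each of the others the measured probe sets lay on both sides of 0. Relative to the spike-ins SMAD4 was above 0, at 0.14.

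The ligand BMP2 was the only one of the 10 genes past 2-fold by its brightest probe set. BMP2 had a signal of 38.9 in spheroids, under the floor, and 154 in monolayer, at least 2.46-fold lower. Its other probe set was at 48.4 in spheroids and 103 in monolayer, at least 1.64-fold lower. Both monolayer signals of BMP2 are low, and with a floor of 89.2, which 95% of olfactory receptor signals do not exceed, the bound was only 1.73-fold. BMP4, the other BMP ligand among the 10, was at 8240 in spheroids and 8635 in monolayer, a log2 difference of -0.07, and at 0.18 relative to the spike-ins. The ligand TGFB1 was at 136 in spheroids and 158 in monolayer by its brightest probe set (-0.22, and 0.03 relative to the spike-ins). The other probe set of TGFB1 had 124 in spheroids and 36.1 in monolayer, where it missed the floor, at least 1.98-fold higher. The direction of TGFB1 thus depended on the probe set.

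BMPR2, the type II receptor for BMP ligands, was the only one of the 10 genes that was higher in spheroids by its brightest probe set, with signals of 1401 in spheroids and 749 in monolayer, a log2 difference of 0.90 or 1.87-fold. Of its 5 measured probe sets 4 were higher in spheroids. These had signals of 494 in spheroids and 414 in monolayer (0.25), 242 and 179 (0.43), and 187 and 111 (0.76). The fifth, at 80.7 in spheroids and 113 in monolayer, was at -0.49. BMPR2 was above 0 with every scaling tried, from 0.83 to 1.15, and past 2-fold relative to the spike-ins alone.

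**Figure D2:**
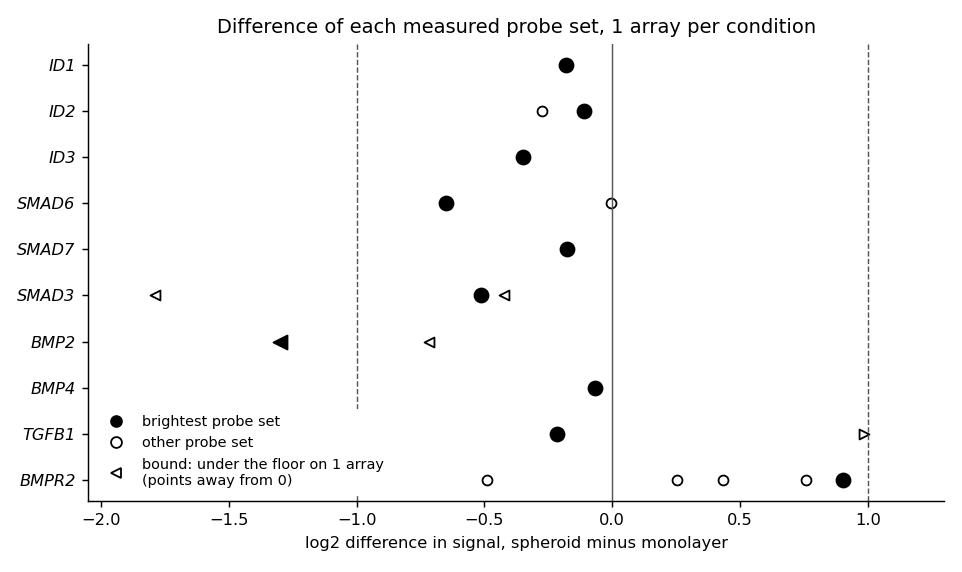
Log2 difference in signal (spheroid minus monolayer) of the 20 measured probe sets of the 10 genes, 1 array per condition. Filled symbols are the brightest probe set of each gene, open symbols the others, triangles are bounds that point away from 0, and dashed lines mark 2-fold. BMP2 and a dimmer probe set of SMAD3 lie beyond the left dashed line, and TGFB1 and BMPR2 have probe sets on both sides of 0.

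By brightest probe set, 1 of the 10 genes was at least 2-fold lower in spheroids, where 3.08% of all 13183 measured genes were, and 0 were at least 2-fold higher, where 2.53% were. By probe set, 2 of the 20 measured ones were at least 2-fold lower, against 3.14% of 24786 probe sets assigned to a single gene, and 0 were at least 2-fold higher, against 3.66%. The median log2 difference of the 10 genes was -0.20 and that of all measured genes -0.05, and relative to the spike-ins these were 0.05 and 0.18. Of the 10 genes 9 were under 0, as were 54.8% of all measured genes, and relative to the spike-ins 4 were under 0 and 6 above. That scaling gave 700 genes higher and 189 lower past 2-fold over the whole array, against 334 and 406 as deposited.

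**Figure D3:**
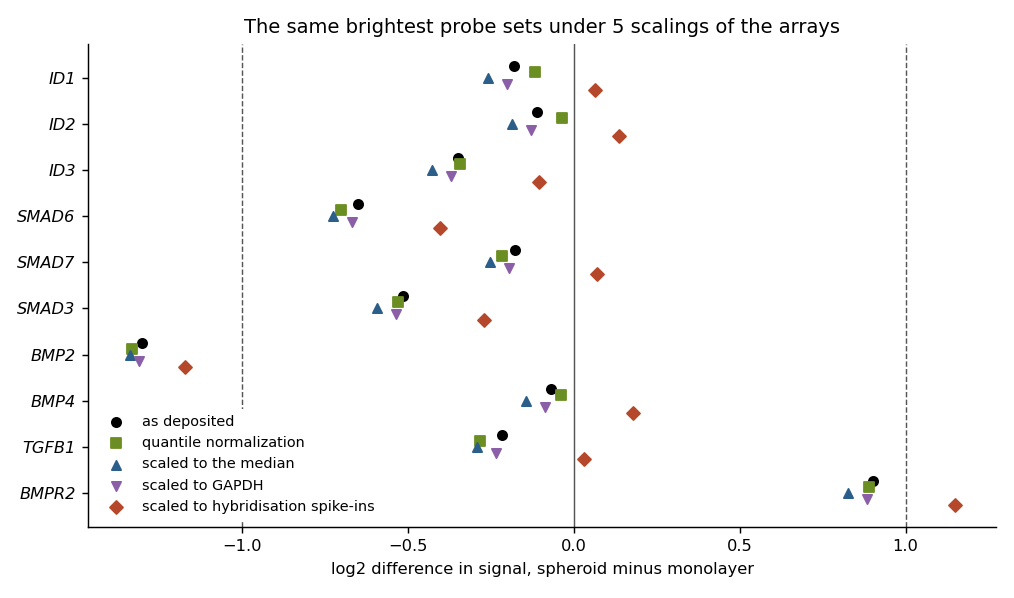
Log2 difference (spheroid minus monolayer) of the brightest probe set of each of the 10 genes as deposited and under 4 other scalings of the arrays, with dashed lines at 2-fold. The symbols of BMP2, a bound, stay left of the dashed line and those of BMPR2 right of 0. ID1, ID2, SMAD7, BMP4 and TGFB1 cross 0 once hybridisation spike-ins set the scale.

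The wider pathway was described from lists of 121 genes by role, which include the 10, and 83 of the 121 were measured. Of these 83, 9 were at least 2-fold lower in spheroids (10.8%, against 3.08% of all measured genes) and 1 was at least 2-fold higher. Relative to the spike-ins 6 were lower (7.23%, against 1.43% of all measured genes) and 4 higher (4.82%, against 5.29%). Among 7 measured BMP ligands, 4 of them above the floor on both arrays, the median log2 difference was -0.77 (-0.52 relative to the spike-ins). The median was -0.39 over 13 ligands without a floor, over 3 at the 75th-percentile floor and over 7 with the floor from olfactory receptors. By the median of probe sets it was -0.40. Summed signals of the listed ligands were 9803 in spheroids and 11079 in monolayer. Of the 7, 6 were under 0 and 1 above, and 2 were at least 2-fold lower and 0 higher. These were BMP2 and BMP7, a ligand of the same family with signals of 275 in spheroids and 568 in monolayer (-1.05). A second probe set of BMP7 was at 0.24, and relative to the spike-ins BMP7 was at -0.80. BMP6 was at 143 in spheroids and 244 in monolayer (-0.77), and GDF5, a ligand known from joint development, was at 11.3 in spheroids, under the floor, and 108 in monolayer, at least 1.72-fold lower.

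Among 10 measured TGF-beta and activin ligands the median was -0.21, or 0.03 relative to the spike-ins. It was 0.56 over the 2 still measured if the floor is raised to the 75th percentile. Of the 10, 0 were at least 2-fold lower and 1 was at least 2-fold higher, where 2.53% of all measured genes were. This was GDF15, a distant member of the family that cell stress induces, with signals of 11136 in spheroids and 3873 in monolayer. Its log2 difference was 1.52, and both its measured probe sets were higher. GDF11, a ligand that acts through SMAD2 and SMAD3, was at 160 in spheroids and 108 in monolayer (0.57), but another of its probe sets was at -1.28. The inhibin subunits INHBB and INHA did not reach the floor in spheroids and were at least 1.75-fold and 1.53-fold lower.

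Of 12 measured extracellular antagonists and latency proteins 3 were at least 2-fold lower, where 3.08% of all measured genes were, and 0 higher. The median of the 12 was -0.51 (-0.27 relative to the spike-ins, and -0.27 with the floor of 89.2). NBL1, a secreted antagonist of the DAN family, was at 249 in spheroids and 664 in monolayer, a log2 difference of -1.41. THBS1, thrombospondin-1, which activates latent TGF-beta, was at 94.8 in spheroids and 240 in monolayer (-1.34). The other of its 2 measured probe sets, out of 7, was at -1.02. LTBP2, a microfibril protein of the latent TGF-beta binding protein family, was at 54.1 in spheroids, under the floor, and 125 in monolayer, just past 2-fold lower as a bound, but its second probe set was at 0.83. LTBP2 was short of 2-fold with the floor of 89.2, at -0.49, and relative to the spike-ins, at -0.87. NOG, which encodes noggin, had 42.4 in spheroids, under the floor, and 108 in monolayer, at least 1.71-fold lower, and GREM1, which encodes gremlin, was under it on both arrays.

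Among the other receptors, TGFBR3, the coreceptor betaglycan, was at 417 in spheroids and 901 in monolayer (-1.11), both its probe sets were lower, and relative to the spike-ins it was short of 2-fold, at -0.86. TGFBR1, the type I receptor of TGF-beta, was at 4310 in spheroids and 2811 in monolayer (0.62), and both its measured probe sets were higher. TGFBR2 was at 929 and 791 (0.23). The activin receptor ACVR1B was at 1867 in spheroids and 2228 in monolayer (-0.26), with another probe set at 0.76. Of 7 BMP receptors listed only 4 were measured. BMPR1A had no probe set assigned to it alone, and BMPR1B did not reach the floor on either array. Besides BMPR2, the measured BMP receptors ACVR2B and ACVR2A, which activins share, and ACVR1 were within 2-fold. ACVR2B had a signal of 760 in spheroids and 1274 in monolayer (-0.75, with other probe sets up to 0.65), ACVR1 of 1133 and 1277 (-0.17) and ACVR2A of 640 and 615 (0.06). Of 19 measured intracellular regulators 0 were past 2-fold in either direction, where 3.08% of all measured genes were lower and 2.53% higher. The median of the 19 was -0.02, or 0.23 relative to the spike-ins. The largest differences among them were those of SKI, a corepressor of SMAD target genes (1492 in spheroids and 834 in monolayer, 0.84), the endosomal protein ZFYVE16 (1375 and 843, 0.71), SMURF2, a ubiquitin ligase for SMADs and receptors (10417 and 16538, -0.67), and the pseudoreceptor BAMBI (893 and 1372, -0.62). SKI was past 2-fold relative to the spike-ins, at 1.08, but another of its probe sets was at -0.33. Dimmer probe sets of 3 regulators were past 2-fold higher, at 1.01 for ZFYVE16, 1.13 for STRAP and 2.05 for SMURF1, the last pair named after their values were seen, while the brightest of each gene was short of it.

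**Figure D4:**
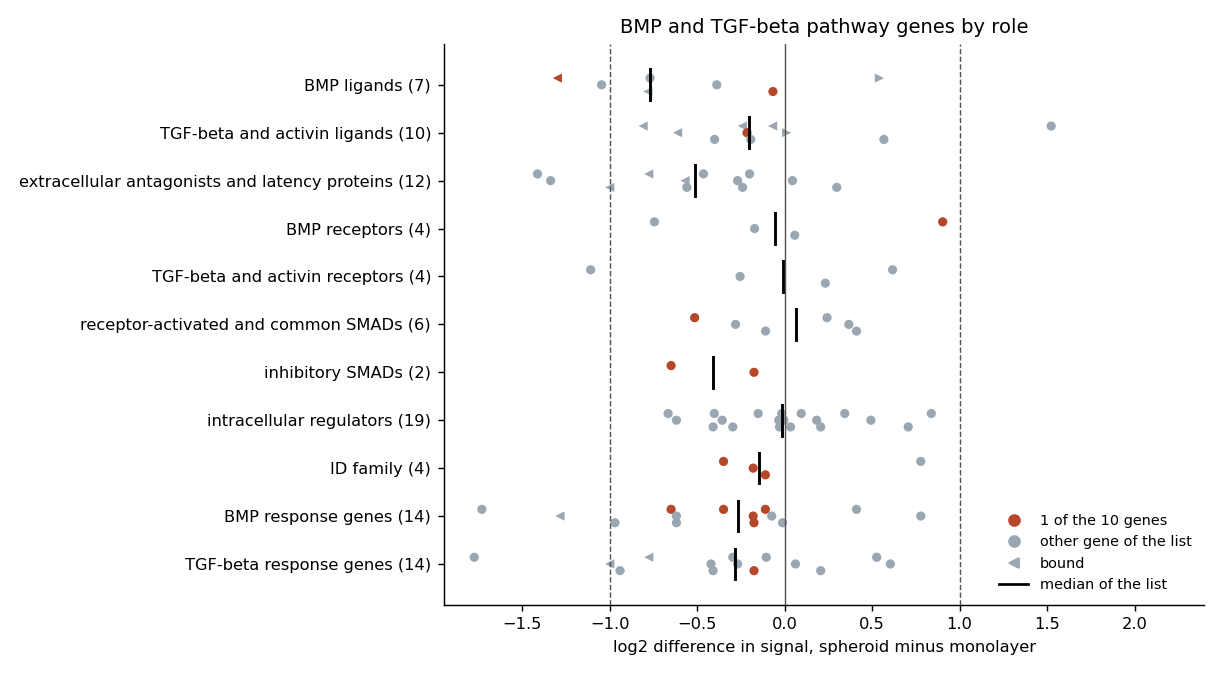
Log2 difference in signal (spheroid minus monolayer) of measured BMP and TGF-beta pathway genes by role, with counts of measured genes in parentheses, 1 array per condition. Red symbols are the 10 genes described here, triangles are bounds, black bars are the medians of the lists, which share some genes, and dashed lines mark 2-fold. GDF15 is the only symbol right of the right dashed line, and MSX1 and CCN2 lie farthest to the left among the response genes.

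Some response genes outside the ID family had larger differences than ID1, ID2 and ID3. Of 14 measured BMP response genes 2 were at least 2-fold lower, where 3.08% of all measured genes were, and 0 higher. The median of the 14 was -0.27, or -0.02 relative to the spike-ins. MSX1, a homeobox gene that BMP signalling induces in embryonic tissues, was at 3528 in spheroids and 11718 in monolayer, a log2 difference of -1.73, with its other probe set at -0.77 and a value of -1.49 relative to the spike-ins. ATOH8, a basic helix-loop-helix factor, was at 58.6 in spheroids, under the floor, and 153 in monolayer, at least 2.44-fold lower, but the other 2 measured probe sets of ATOH8 were higher, up to 0.35, and with the floor of 89.2 its bound was short of 2-fold, at -0.78. GATA3, a zinc-finger factor, was at 206 in spheroids and 404 in monolayer (-0.97), with its other measured probe set at -0.29. At the 75th-percentile floor GATA3 was at -0.06. MSX2, a homeobox relative of MSX1, was at 761 in spheroids and 802 in monolayer (-0.07), and is named after its value was seen.

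Of 14 measured TGF-beta response genes 2 were at least 2-fold lower, where 3.08% of all measured genes were, and 0 higher. The median of the 14 was -0.28, or -0.04 relative to the spike-ins, and 10 were under 0 and 4 above. At the 75th-percentile floor the median was 0.06 over the 7 still measured. CCN2, a matricellular protein that TGF-beta and YAP both induce, was at 65.9 in spheroids, just above the floor, and 226 in monolayer (-1.78), and LTBP2, given above, is in this list too. CDKN2B, the cyclin-dependent kinase inhibitor p15, was at 197 in spheroids and 378 in monolayer (-0.94), and SNAI2, a repressor of epithelial genes, had 42.8 in spheroids, under the floor, and 107 in monolayer, at least 1.71-fold lower. Both response lists hold SMAD7, and the BMP list holds the ID genes and SMAD6.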

How the data were processed

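RNA of HT-29 spheroids and of HT-29 monolayer cells was hybridised to 1 array each. Per the methods and the submitters' processing notes, the authors used Affymetrix Expression Console to compute MAS5 signals. These intensities are what was deposited, without detection calls. Duplicates are mentioned in the methods, but a single array of each condition was at hand, which limits the precision. Names came from the platform annotation, with symbols updated from the RefSeq table of GRCh38.p14 for 41043 of 41097 probe sets assigned to a single gene. A further 1801 assigned to several genes were not used and 11777 are unnamed here. Signals were floored at the 50th percentile and put on the log2 scale using pandas 2.3.3 and numpy 2.4.6 under Python 3.11.15, and matplotlib 3.10.9 drew the plots. The computation was checked on simulated data for genes above the floor on both arrays, so that bounds were not part of this check. Each gene was represented by its brightest probe set (mean log2 signal), and 2-fold was the threshold, as in the methods. Genes were named if they were among the 10, in the ID or SMAD families, or among the 4 largest differences of a role list, and marker genes as needed to check the cell type. BMPR1A, BMPR1B, GREM1, SMURF1, STRAP and MSX2 are exceptions. The 10 genes, the lists and the alternatives were chosen with earlier results of these data known.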

Additional observations from a re-analysis of the deposited data

How the results depend on the processing

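No replicate could be left out and no paired analysis was possible because each condition has 1 array. Of the 10 genes, 1 was at least 2-fold higher relative to the hybridisation spike-ins (BMPR2), where 5.29% of all measured genes were. Under the other alternatives 0 were. The count at least 2-fold lower was 1 as given, where 3.08% of all measured genes were. It was 0 with the floor at the 75th percentile (386, with 6 genes measured), where 0.892% of all measured genes were lower. It was also 0 with the floor from olfactory receptors (2.60% of all) and at a 3-fold threshold (0.455%). When each gene took its probe set of largest difference the count was 2 (BMP2 and SMAD3), where 5.40% of all measured genes were lower. The count lower was 1, as given, under quantile normalization (3.38% of all) and scaling to the median (3.78%), to the spike-ins (1.43%) or to GAPDH (3.20%). The same count of 1 came with no floor (12.7% of all), a pseudocount of 15.9 (4.92%) and the median of probe sets (2.47%). The median over the 10 genes moved by less than 0.41 under each alternative and was above 0 relative to the spike-ins alone, at 0.05. TGFB1 was at 0.38 by the median of its probe sets and BMPR2 at 0.43. Without a floor BMP2 was at -1.99. Of 83 pathway genes, 9 were lower and 1 higher as given. Without a floor, 20 of 111 were lower (against 12.7% of all genes) and 8 higher (7.21%, against 12.5%). At the 75th-percentile floor 2 of 53 were lower (3.77%, against 0.892%) and 1 higher, and with the olfactory receptor floor 6 of 78 lower (7.69%, against 2.60%) and 1 higher. With the median of probe sets 5 of 83 were lower (6.02%, against 2.47%) and 1 higher, and at 3-fold 2 (2.41%, against 0.455%) and 0. Relative to the spike-ins 6 were lower (7.23%, against 1.43%) and 4 higher (4.82%, against 5.29%). With the pseudocount 13 of 83 were lower (15.7%, against 4.92%) and 2 higher (2.41%, a smaller share than among all genes). By the probe set that differed most 12 of 83 were lower (14.5%, against 5.40%) and 5 higher (6.02%, against 5.96%). Quantile normalization gave 10 of 82 lower (12.2%, against 3.38%) and 1 higher. Scaling to the median gave 11 of 82 lower (13.4%, against 3.78%) and 1 higher. RefSeq genes overlap the ranges of ID3, SMAD3, BMP4 and BMPR2.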

Other observations

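ID proteins act by binding basic helix-loop-helix factors, and a list of 8 such partners and targets was set beside them. Of these 5 were measured and 0 were past 2-fold in either direction, where 3.08% of all measured genes were lower and 2.53% higher. TCF3, which encodes the E proteins E12 and E47, was at 4979 in spheroids and 6158 in monolayer, a log2 difference of -0.31, but its 12 measured probe sets ran from -0.74 to 1.38. TCF12, another E protein gene, was at 3155 in spheroids and 2735 in monolayer (0.21), with 4 of 4 probe sets higher. HES1, a repressor of secretory cell fate downstream of Notch, was at 527 in spheroids and 1013 in monolayer (-0.94), and its other measured probe set was at -1.37. ATOH1, the factor of the secretory lineage, was under the floor in spheroids and at 65.0, near it, in monolayer.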
